A study of Mus musculus with 18 samples.

Results

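Long domain-free stretches are parts of chromosomes 1 to 19 that lay outside every Lamin B domain and every H3K9me2 domain in cardiomyocytes (CM) and in embryonic stem cells (ESC). They were chosen from the 4 deposited domain lists. Between the first domain start and the last domain end of each chromosome, every unbroken stretch of 500 kb or more in none of the lists was a member. There were 511 such stretches among 1479 domain-free stretches of any length. The rule used the absence of domains in all 4 lists, so that absence is a description and no finding. What the rule did not set was where the stretches lay, which list closed them at their edges, and how far each single list stayed clear around them.

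The samples were 18 ChIP-seq libraries of mouse cells. They include input controls, 1 each for wild-type CM, wild-type ESC, Hdac3-floxed ESC and Hdac3-deleted ESC. Each domain list is named by several of the Lamin B or H3K9me2 libraries. The CM lists of Lamin B and of H3K9me2 are each named by 2 wild-type libraries of cardiomyocytes, made from ESC and collected on day 10 of differentiation. In ESC, 6 libraries name the Lamin B list, which are 2 of Hdac3-deleted ESC (CMV-creERT; Hdac3f/f cells given 1 µg/ml tamoxifen for 24 h), 2 of the same line without tamoxifen and 2 of wild-type ESC. The H3K9me2 list of ESC carries the names of 4 libraries, 2 of CMV-creERT; Hdac3f/f ESC without tamoxifen and 2 of wild-type ESC. Wild-type ESC had been grown without feeders in 2i medium, and the Hdac3f/f line on feeder cells, per the labels' protocols. The labels do not say which of these were pooled into the ESC lists, so wild-type cells and a mixture with the Hdac3 line cannot be told apart in any ESC value. No list held a value per library, so no difference between CM and ESC below carries a replicate error or a test, and the sequencing depth behind a missing domain is unknown. The lists hold no expression values, so the cell types could not be checked against marker genes.

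Lamin B is a filament protein of the nuclear lamina, the meshwork under the inner nuclear membrane. Chromatin that touches it forms long lamina-associated domains, which are typically poor in genes and rich in H3K9me2, a histone mark laid down by the methyltransferases G9a and GLP. The sequence between such domains is known as inter-LAD chromatin and generally holds more of the active genes. Domain lists do not measure where chromatin sits in the nucleus, so an interior position of these stretches was not measured here. No gene, base composition or repeat could be assigned to them either, because no genome or annotation of the mm9 build was used. Assembly gaps and poorly mappable sequence, which also yield no domains, were not analysed here.

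The 511 stretches held 846.0 Mb, or 35.4% of the 2391 Mb span of chromosomes 1 to 19. The 968 shorter domain-free stretches, with a median of 110 kb, added only 150.8 Mb. Long stretches therefore made up 34.6% of all domain-free stretches by number and 84.9% of the domain-free sequence by length. Their median length was 1151 kb, with quartiles of 730 kb and 1945 kb. Stretches of 1 Mb or more numbered 285 and contained 80.7% of the members' sequence, and the 123 stretches of 2 Mb or more contained 53.5% of it. There was no break in the lengths at the threshold. 6 members measured exactly 500 kb, among them chr1:188320001-188820000, chr7:138470001-138970000 and chr7:142560001-143060000. The 3 longest domain-free stretches outside the rule were chr2:125330001-125820000 (490 kb), chr18:49860001-50346000 (486 kb) and chr9:49140001-49620000 (480 kb). From 450 to 499 kb there were 32 stretches, and from 500 to 549 kb there were 31.

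**Figure D1:**
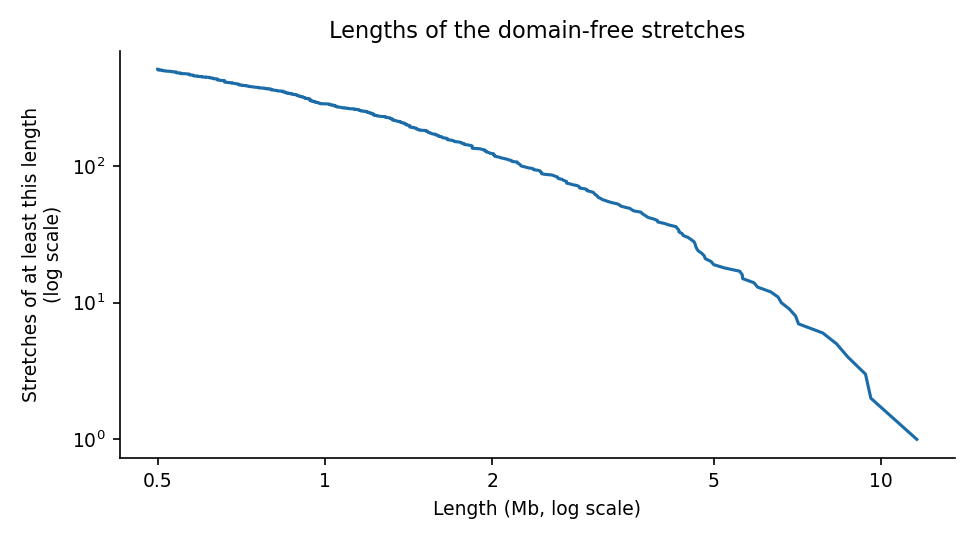
The number of domain-free stretches (y axis, log scale) of at least the length given on the x axis (Mb, log scale), for all 511 members. The curve runs without a step from 511 stretches at 0.5 Mb through 285 at 1 Mb and 123 at 2 Mb to 1 stretch of 11.6 Mb.

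The lengths of the members also set how much of this sequence lay far from any domain. Points more than 500 kb from the nearest domain of every list made up 398.1 Mb (16.6% of the span) in 285 stretches. Points more than 1 Mb away made up 207.0 Mb in 123 stretches, and points more than 2 Mb away 68.8 Mb in 38 stretches.

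The longest stretch was chr4:128220001-139820000 (mm9), 11.6 Mb on distal chromosome 4. It was closed on both sides by CM H3K9me2 domains, since the gap in the CM H3K9me2 list around it was also 11.6 Mb, against 13.86 Mb in the ESC H3K9me2 list. An ESC H3K9me2 domain also closed the stretch at its low-coordinate edge. Beyond the high-coordinate edge the next ESC H3K9me2 domain was 2260 kb away. The Lamin B gap around the stretch was far longer and nearly alike, at 20.69 Mb in the CM list and 20.53 Mb in the ESC list. A single CM H3K9me2 domain of 40 kb, chr4:139820001-139860000, separated the stretch from a further member of 2.22 Mb. Neither ESC list had a domain at that site.

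On chromosome 17, chr17:23661001-33250000 (9.59 Mb) began where all 4 lists had a domain within 1 kb and ended at an ESC H3K9me2 domain. The gap around it was 12.9 Mb in the CM H3K9me2 list and 9.59 Mb in the ESC H3K9me2 list. Here an ESC H3K9me2 domain of 120 kb, chr17:33250001-33370000, separated it from a neighbouring member of 3.19 Mb, and no CM domain was listed there. A short H3K9me2 domain of 1 cell type thus cut off each of these members from a neighbour, in CM on chromosome 4 and in ESC on chromosome 17.

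Chromosome 2 held the member next in length, chr2:26700001-36080000 (9.38 Mb), in Lamin B gaps of 11.99 Mb in CM and 12.14 Mb in ESC. It was followed by chr11:112870001-121590000 (8.72 Mb), which ended 70 kb before the last domain end of its chromosome. The stretch chr8:121820001-130140000 (8.32 Mb) had H3K9me2 gaps of exactly that length in both cell types, and Lamin B gaps of 14.56 Mb in CM and 15.72 Mb in ESC. The ESC gap of that pair ran to the end of the span and is cut off there. On chromosome 9, chr9:60010001-67870000 (7.86 Mb) lay in an H3K9me2 gap of 14.98 Mb in CM and 7.86 Mb in ESC.

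The other 4 of the 10 longest members differed in what closed them. chr7:39350001-46370000 (7.02 Mb) was closed by all 4 lists at almost the same points. Its Lamin B gap measured 7.03 Mb in CM and 7.03 Mb in ESC, and its H3K9me2 gap 7.04 Mb in CM and 7.02 Mb in ESC. chr12:18320001-24940000 (6.62 Mb) was the opposite case, with a Lamin B gap of 11.6 Mb in CM and 18.73 Mb in ESC, and an H3K9me2 gap of 6.62 Mb in CM and 9.45 Mb in ESC. chr5:109953001-117060000 (7.11 Mb) and chr15:75380001-82220000 (6.84 Mb) lay in Lamin B gaps over 15 Mb long. These were 16.64 Mb in CM and 16.73 Mb in ESC on chromosome 5, and 17.13 Mb in CM and 17.75 Mb in ESC on chromosome 15. Together the 10 longest members held 83.1 Mb, or 9.82% of the members' sequence.

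The stretches were unevenly spread over the chromosomes. Their share of the span was highest on chromosome 11, at 50.5% in 21 stretches, followed by chromosome 5 (44.9%), chromosome 9 (44.3%), chromosome 17 (42.9%), chromosome 19 (42.2%) and chromosome 7 (42.0%). It was lowest on chromosome 3, at 22.8% in 29 stretches, and was also low on chromosomes 18 (26.0%) and 1 (26.9%). Chromosomes 11 and 3 differed in the length of the stretches more than in their number. The median stretch measured 1799 kb on chromosome 11 and 900 kb on chromosome 3, with 1.83 and 1.85 stretches per 10 Mb of span. The longest stretch of chromosome 11 is the 8.72 Mb member above, whereas the longest of chromosome 3, which began at 86553001, measured 3.97 Mb.

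Sequence that lay in all 4 lists at once, again in stretches of 500 kb or more, came to 788.0 Mb in 381 blocks. The domain-free members exceeded these blocks on 9 of the 19 chromosomes and were below them on 10. Chromosome 9 had 44.3% in members and 22.2% in such blocks, and chromosome 3 had 22.8% in members and 40.8% in blocks. Since both quantities share the same span, a high share of one limits the other.

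**Figure D2:**
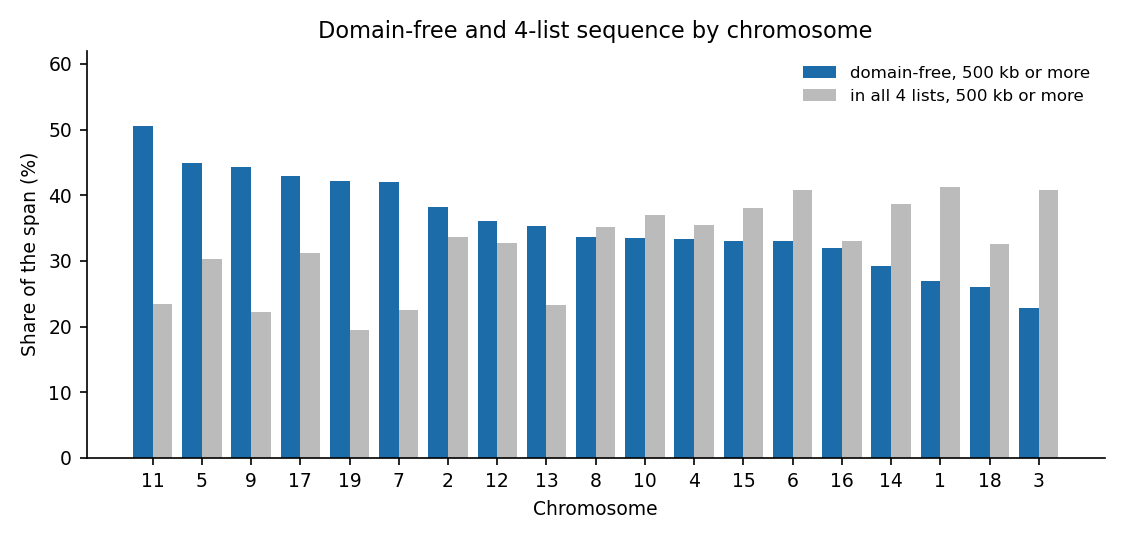
Share of the chromosome span (y axis, percent) in domain-free stretches of 500 kb or more (blue, left bars) and in blocks of 500 kb or more that lie in all 4 domain lists (grey, right bars), by chromosome (x axis, ordered by the blue bars). Blue bars run from 50.5% on chromosome 11 to 22.8% on chromosome 3, and the blue bar is the taller of the pair on 9 chromosomes.

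Along the chromosomes the stretches were most abundant toward the high-coordinate end. Mouse chromosomes 1 to 19 carry the centromere at the low-coordinate end, so the high-coordinate end is the telomeric one. With the span of every chromosome divided into 5 equal parts, the members covered 30.3%, 30.4%, 33.3% and 35.1% of the parts 1 to 4 and 47.8% of the part 5. In part 5, Lamin B domains covered 31.5% in CM and 30.0% in ESC, and H3K9me2 domains 42.4% in CM and 39.4% in ESC. All 4 lists had their lowest cover there, which the rule ties to a high share of domain-free sequence. The share in part 5 was above that in part 1 on 13 of the 19 chromosomes. Part 5 had the highest share of the 5 parts on 7 chromosomes and the lowest on 1. In the last 5 Mb of the spans the members covered 51.7%, against 28.6% in the first 5 Mb. Of the 19 chromosomes, 3 had no member sequence in the last 5 Mb and 5 had none in the first 5 Mb.

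**Figure D3:**
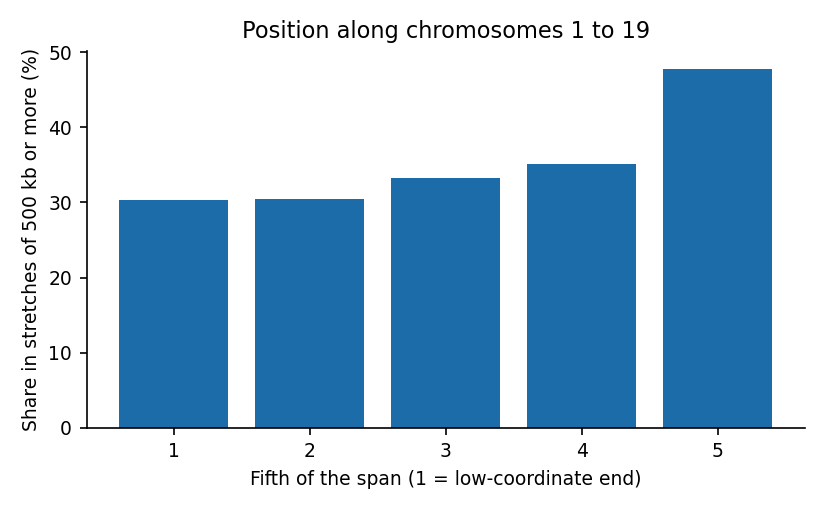
Share of the span in domain-free stretches of 500 kb or more (bars, percent) in each of 5 equal parts of the span, summed over chromosomes 1 to 19, from the low-coordinate end (1) to the high-coordinate end (5). The bars lie between 30.3% and 35.1% in parts 1 to 4 and at 47.8% in part 5.

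Stretches were closed by H3K9me2 far more often than by Lamin B. The H3K9me2 lists also held more domains on these chromosomes, 1140 in CM and 2431 in ESC. The Lamin B lists held 826 in CM and 708 in ESC. A link between these numbers and the edge counts was not tested. A list was counted as beginning at an edge if its next domain started within 20 kb, the width of the coarsest bin of the lists. At 817 of the 1022 edges (79.9%, Wilson 95% interval 77.4 to 82.3) only H3K9me2 began. Both antibodies began at 161 edges (15.8%) and only Lamin B at 44 edges (4.31%). Such intervals treat edges as independent and cover counting error only. Over the edges of all 1479 domain-free stretches, 72.8% had only H3K9me2, a background that includes the members. The stretches under 500 kb had 69.0% (66.9 to 71.0) of edges with only H3K9me2 and 24.4% with both antibodies.

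Of the 817 edges with only H3K9me2, it began in CM alone at 233, in ESC alone at 310 and in both at 274. The shared part, 33.5%, was near the 33.3% of such edges over all domain-free stretches. All 4 lists began together at 56 edges (5.48%), against 8.35% of the edges of all domain-free stretches. The pattern varied little with length, with only H3K9me2 at 78.3% of edges in stretches under 1 Mb, 83.6% from 1 to under 2 Mb and 78.0% at 2 Mb or more. Over chromosomes the members' share ran from 68.8% on chromosome 16 (22 of 32 edges) to 93.8% on chromosome 14 (60 of 64 edges).

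Outside the edges, H3K9me2 domains were more frequent than Lamin B domains, by less at 1 Mb than at 50 kb in both cell types. The lists had the same order over the whole span, so the order itself is no trait of the members' surroundings. There H3K9me2 domains covered 54.2% in CM and 50.9% in ESC, and Lamin B domains 45.9% in CM and 42.4% in ESC. At 50 kb outside an edge, H3K9me2 domains were present at 64.5% of edges in CM and 74.4% in ESC, and Lamin B domains at 22.1% in CM and 16.5% in ESC. At 200 kb the H3K9me2 shares were 66.7% in CM and 58.0% in ESC, and the Lamin B shares 34.5% in CM and 26.3% in ESC. At 1 Mb, H3K9me2 stood at 49.6% in CM and 47.2% in ESC, and Lamin B at 37.6% in CM and 34.3% in ESC. By then 45.3% of the points lay in no domain of any list, and so in a further domain-free stretch. Domain-free sequence of any length made up 41.7% of the whole span. Among the distances measured, the ESC H3K9me2 share was highest at 50 kb and was from 100 kb on below the CM curve, and the domains of these lists had a median of 460 kb in CM and 140 kb in ESC.

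**Figure D4:**
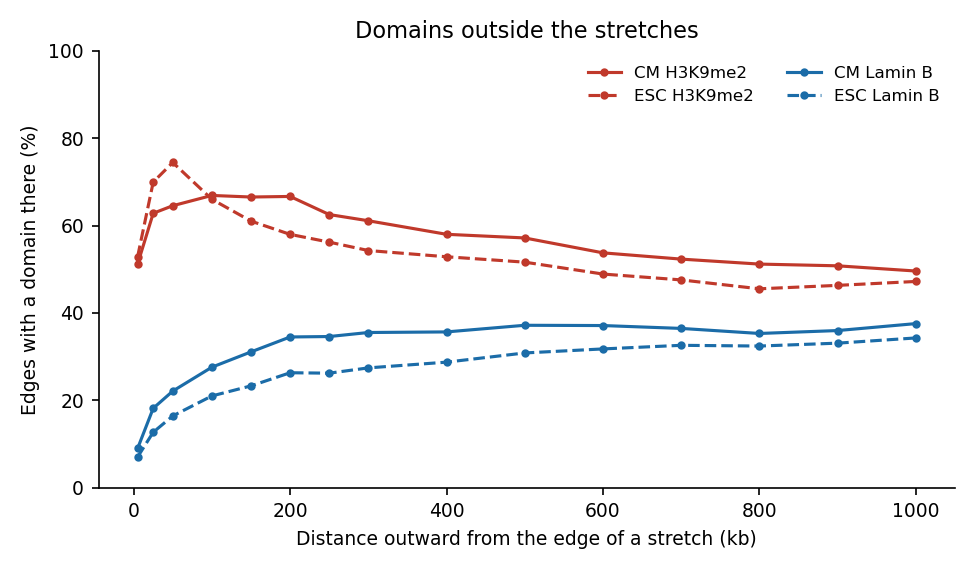
Share of the stretch edges (y axis, percent) with a domain of each list at the given distance outward (x axis, kb), for H3K9me2 (red) and Lamin B (blue) in CM (solid lines) and ESC (dashed lines), over 1022 edges at 5 kb and 1006 at 1000 kb. H3K9me2 is above Lamin B at every distance plotted, and CM Lamin B is above ESC Lamin B at every distance plotted.

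By number, but not by sequence, most covered blocks next to the members were free of Lamin B, as were most blocks overall. An unbroken run of sequence in at least 1 list is called a covered block here. Of 827 blocks that bordered a member, 455 (55.0%, Wilson interval 51.6 to 58.4) held no Lamin B domain of either cell type and so consisted of H3K9me2 alone. Among the 671 blocks that bordered no member, 337 (50.2%, 46.4 to 54.0) held none, and over all 1498 blocks the share was 52.9%, so the members' neighbours were near the background. By length, blocks without Lamin B made up 11.7% of the 881.7 Mb in blocks beside members and 11.2% of the sequence in all blocks. The blocks of H3K9me2 alone beside members were short, with a median of 140 kb, whereas those with Lamin B had a median of 924.5 kb.

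Of 195 covered blocks with a member on both sides, 120 (61.5%) held no Lamin B and 45 were 1 Mb long or more. In 75 places the block was 200 kb or less, and 73 of these short blocks (97.3%) held no Lamin B. That limit favours H3K9me2, whose ESC domains were the shortest of the lists, and 86.7% of all covered blocks of 200 kb or less held no Lamin B. ESC H3K9me2 alone made 53 of the 75 (70.7%), against 61.6% of all blocks of that length, H3K9me2 of both cell types 15 and CM H3K9me2 alone 5. The 2 exceptions were a CM Lamin B domain of 143 kb, chr1:194711001-194854000, and a block of 181 kb with ESC Lamin B and H3K9me2 of both cell types. If these short blocks are passed over, 134 of the 511 members join into 59 chains, of 2 to 5 members each. The longest chain was chr5:109953001-126100000, which held 3 members and 15.9 Mb of domain-free sequence in 16.15 Mb. In that chain, the blocks were chr5:117060001-117200000 (140 kb, CM H3K9me2 alone) and chr5:120430001-120530000 (100 kb, H3K9me2 of both cell types).

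Around the members, the Lamin B list was empty for much longer than the members themselves, and more so in ESC than in CM. The Lamin B gap that enclosed a member had a median of 4180 kb in CM (quartiles 1777 and 8122 kb) and 5166 kb in ESC (2646 and 8811 kb). It was shorter in CM than in ESC by over 20 kb for 312 of 511 members (61.1%, Wilson interval 56.8 to 65.2), longer in CM for 117 (22.9%) and within 20 kb for 82. Over all domain-free stretches the gap was shorter in CM for 58.6% and longer for 21.5%, so the members were close to the background. The median difference, CM minus ESC, was -88 kb, while the lower quartile was -921 kb. Members are not independent here, because the 511 lay in 315 distinct Lamin B gaps in CM and 281 in ESC. The medians above count a gap once for each member in it, which gives long gaps more weight. With each distinct gap counted once, the median was 2398 kb in CM and 2979 kb in ESC. In both cell types 1 gap on chromosome 14 held 13 members, chr14:53449001-68904000 in CM and chr14:53433001-68976000 in ESC, and 78.6% and 78.2% of it was member sequence.

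Distances to Lamin B were measured to the end of the span where no domain lay on that side. Counted so, the nearest Lamin B domain lay at a median distance of 130 kb from a member in CM and 264 kb in ESC. It was closer in CM by over 20 kb for 214 members (41.9%) and farther in CM for 86 (16.8%), with 211 within 20 kb. Over all domain-free stretches it was closer in CM for 40.9% and farther for 13.7%, so the members were again near the background. Neither a Lamin B domain nor a span end lay within 1 Mb of 106 members in CM (20.7%) and 133 in ESC (26.0%). The shares over all domain-free stretches were 17.2% in CM and 22.5% in ESC. Conversely, Lamin B domains stood within 20 kb on both sides of 25 members in CM (4.89%) and 10 in ESC (1.96%), against 9.33% in CM and 5.41% in ESC of all domain-free stretches. In 6 members all 4 lists did so on both sides, as in 1.49% of all domain-free stretches. These were chr7:39350001-46370000 (7020 kb), chr2:90160001-94320000 (4160 kb), chr13:13420001-14300000 (880 kb), chr6:108009001-108830000 (821 kb), chr7:114350001-114939000 (589 kb) and chr8:59790001-60290000 (500 kb).

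The largest shortenings of the Lamin B gap in CM came from CM domains that lay inside long ESC gaps. Around chr12:33500001-34140000 (640 kb) the gap was 0.836 Mb in CM and 18.73 Mb in ESC. Around chr16:3720001-5560000 (1.84 Mb) it was 2.40 Mb in CM and 15.97 Mb in ESC, where the ESC gap is cut off by the start of the span. Around chr5:22880001-26340000 (3.46 Mb) it was 3.87 Mb in CM and 16.76 Mb in ESC. Gaps that were longer in CM were fewer. The 3 with the largest lengthening enclosed chr13:92140001-92799000 (9.06 Mb in CM and 0.972 Mb in ESC), chr9:114200001-115780000 (10.86 Mb in CM and 3.27 Mb in ESC) and chr5:134480001-138780000 (12.17 Mb in CM and 4.89 Mb in ESC).

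For H3K9me2 the enclosing gaps were closer to the members' own length, and their difference between cell types was near the background. The median gap was 1820 kb in CM and 1300 kb in ESC. The gap was longer in CM by over 20 kb for 267 of 511 members (52.3%, 47.9 to 56.5), shorter for 164 (32.1%, 28.2 to 36.3) and within 20 kb for 80. Over all domain-free stretches it was longer in CM for 53.8% and shorter for 28.7%, so this direction is no trait of the members. It turned round when only domains of 100 kb or more were kept in all lists, which gave 31.3% longer and 48.7% shorter in CM. That setting changes all 4 lists and with them which stretches are members, so the 511 members were not held fixed. The H3K9me2 lists held 1140 domains in CM and 2431 in ESC on these chromosomes. What turned the direction was not tested. The H3K9me2 gap was the member itself, to the kilobase, for 136 members in CM (26.6%) and 150 in ESC (29.4%), near the 23.2% in CM and 31.6% in ESC over all domain-free stretches. For Lamin B that was so for 4 members in CM and 0 in ESC, with 1.76% in CM and 0.473% in ESC over all domain-free stretches.

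Of the H3K9me2 gaps that were longer in CM, the largest differences were around chr9:59080001-59940000 (14.98 Mb in CM and 0.86 Mb in ESC), chr17:33370001-36560000 (12.9 Mb in CM and 3.19 Mb in ESC) and chr11:82200001-83390000 (6.98 Mb in CM and 1.40 Mb in ESC). The largest in the other direction were around chr4:139860001-142080000 (2.24 Mb in CM and 13.86 Mb in ESC), chr12:25140001-25940000 (0.80 Mb in CM and 9.45 Mb in ESC) and chr5:117200001-120430000 (3.24 Mb in CM and 10.5 Mb in ESC). These 3 lie beside members of the 10 longest, from which a CM H3K9me2 block of 40 kb, 200 kb and 140 kb separates them.

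**Figure D5:**
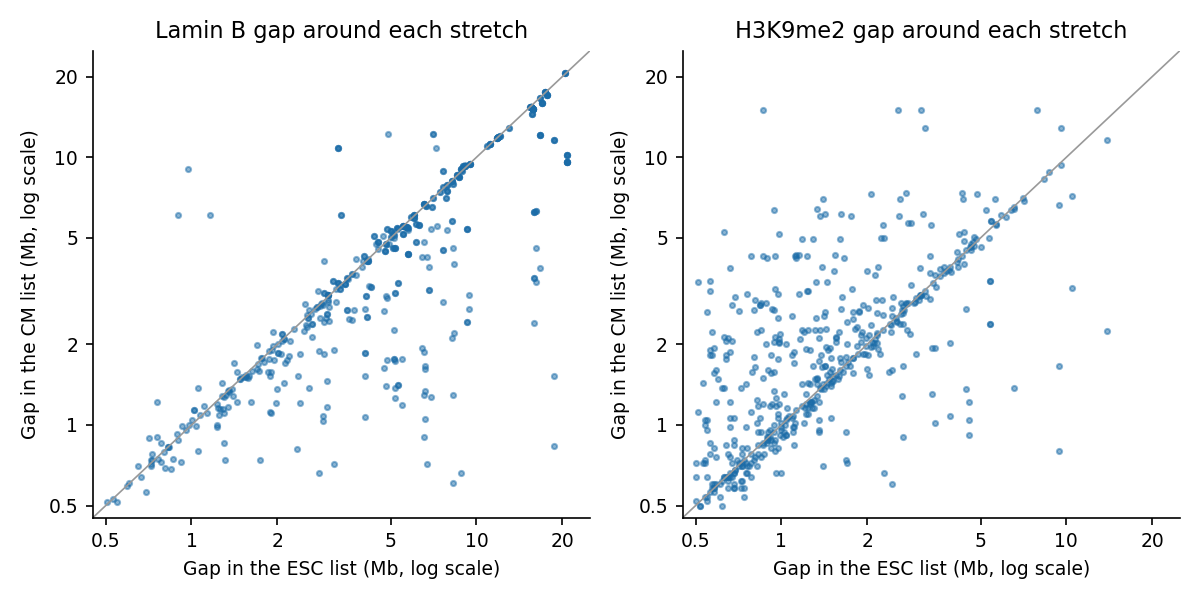
Length of the domain-free gap around each of the 511 members in the CM list (y axis, Mb, log scale) and in the ESC list (x axis, Mb, log scale), for Lamin B (left) and H3K9me2 (right), with the line of equal length. Points below the line have a shorter gap in CM, by over 20 kb for 312 members in Lamin B and 164 in H3K9me2, and several members can share 1 gap.

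The question whether CM and ESC leave the same sequence free of domains can also be put without asking for all 4 lists. Stretches of 500 kb or more that were free of both CM lists numbered 501 and held 944.0 Mb, and those free of both ESC lists numbered 536 and held 918.4 Mb. The sets made up 39.5% of the span in CM and 38.4% in ESC. The sequence in both sets was 850.8 Mb, which is 90.1% of the CM-free set and 92.6% of the ESC-free set. Sequence in both sets lies in no domain of any list, so this overlap is nearly the members over again and no separate evidence. Members made up 89.6% of the CM-free set and 92.1% of the ESC-free set. Domains of the other cell type covered little of either set. ESC domains covered 40.0 Mb (4.24%) of the CM-free set, and CM domains covered 49.5 Mb (5.39%) of the ESC-free set. Most of that was H3K9me2, with 37.7 Mb of ESC H3K9me2 in the CM-free set and 42.4 Mb of CM H3K9me2 in the ESC-free set. Lamin B came to 4.14 Mb of ESC Lamin B in the CM-free set and 18.3 Mb of CM Lamin B in the ESC-free set. These amounts overlap those of H3K9me2. Sequence in domains of both antibodies came to 1.86 Mb of the CM-free set and 11.2 Mb of the ESC-free set.

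Few long stretches were mostly covered by domains of the other cell type. CM domains covered at least 50% of the length of 12 of the 536 ESC-free stretches, and ESC domains did so for 2 of the 501 CM-free stretches. The ESC-free stretch with the most CM sequence was chr3:154230001-159599000 (5.37 Mb), of which CM Lamin B covered 97.5% and CM H3K9me2 59.6%, and which held no member. Next came chr18:3000001-5830000 (2.83 Mb, 40.0% in CM domains) and chr16:3124001-6080000 (2.96 Mb, 35.9%), each with 1 member inside. All 3 touch an end of the span, so the span and not an ESC domain bounds them on that side. The CM-free stretch with the most ESC sequence was chr2:135146001-135828000 (682 kb), wholly inside an ESC Lamin B domain. It was followed by chr19:22940001-25800000 (2.86 Mb, 16.4% in ESC domains) and chr2:76080001-77560000 (1.48 Mb, 31.1%, all of it H3K9me2). Of the 501 CM-free stretches, 53 held 2 or more members with ESC domains between them, against 15 of the 536 ESC-free stretches with CM domains between them. The ESC H3K9me2 list held 2431 domains on these chromosomes and the CM list 1140. A link between these numbers and the counts was not tested.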

How the data were processed

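Per the submitters' processing notes, the tools were STAR, Picard and deepTools and the build mm9. For versions and for the domain caller, nothing is given in the sources used here. The authors' track headers name the settings g 10, bin auto and fdr 5. Each deposited list gives the start, end and a score of every domain; the authors' score, whose scale is not given, served only to filter domains within a list. Domain lengths were multiples of 11 kb (CM Lamin B), 20 kb (CM H3K9me2), 9 kb (ESC Lamin B) and 10 kb (ESC H3K9me2). No counts were used, so depth is unknown.

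Domains were placed on a 1 kb grid with Python 3.11.15, numpy 2.4.6 and pandas 2.3.3. Wilson intervals came from scipy 1.17.1 and figures from matplotlib 3.10.9. The functions were tested on simulated lists. A gap is the sequence between neighbouring domains of 1 list, ended by the span where no domain follows. Distances from a member to the nearest domain of a list end there too. Gaps were called different beyond 20 kb. With 1 list per cell type and antibody, no test was made. Regions named are the 10 longest members, those nearest the threshold, the longest of the chromosomes with the highest and lowest shares, and the 3 largest differences in each direction, gaps counted once; separating blocks and the 6 members closed by all lists were named after their values were seen. The members, lists and comparisons were chosen with earlier results of these data known.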

Additional observations from a re-analysis of the deposited data

How the results depend on the processing

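Across 10 alternatives, 75 of 80 recomputed values stayed within 1.5 times the reported value, or within its Wilson interval for shares of edges and members. Some of these values could not move, so the count is no measure of robustness. The number of stretches of 1 Mb or more is 285 by construction with a minimum of 250 or 1000 kb. Shares of 84.9%, 90.1% and 92.6% of sequence cannot rise by 1.5 times. With a minimum of 1000 kb, 285 stretches were left, by construction. The share of edges with only H3K9me2 was 76.6% with a minimum of 250 kb, 74.9% when each list kept the domains from its median score upward and 75.0% for domains of 100 kb or more. That last alternative put the share of members with a shorter H3K9me2 gap in CM at 48.7%, which turned the direction between cell types; by construction it removes the short domains. The Lamin B share of shorter gaps in CM stayed between 59.6% and 62.8%. Ignoring the ESC H3K9me2 list left 497 stretches with 936.2 Mb, and ignoring the ESC Lamin B list 516 with 850.4 Mb. No paired analysis was possible because the lists hold no value per library, and for that reason no replicate could be left out. Gene content and base composition were not computed without an mm9 genome. With the depth unknown, a domain that a shallow library missed would lengthen a stretch.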

Other observations

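The X chromosome, which the rule leaves out, held 25 domain-free stretches of 500 kb or more. They came to 25.8 Mb, or 15.8% of its 163.4 Mb span. This was below the share on each of chromosomes 1 to 19, of which chromosome 3 was the lowest at 22.8%. With X included the count was 536 stretches.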
